A study of Mus musculus with 12 samples.

Results

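The 39 mouse Hox genes were followed across 12 RNA-seq libraries from the muscle wall of the intestine. The members are all rows of the deposited gene table whose symbol is Hox, a cluster letter from a to d and a paralog number. They are 39 of 52550 genes, with 11 in cluster a, 10 in cluster b, 9 in cluster c and 9 in cluster d. There were 4 groups of 3 biologically independent replicates, all wild type. M scaffold cells were primary cells from the intestinal muscle layers kept for 28 days on an electrospun gelatin scaffold in M medium. That medium, called differentiation medium, has Advanced DMEM/Ham's F-12 as its base with no serum listed. It holds N2, B27 (minus vitamin A), N-acetylcysteine, HEPES, GlutaMAX, ABAM, 10 μM Y27632 (an inhibitor of the kinase ROCK), 1 μg/mL R-spondin1 (which strengthens Wnt signalling) and 100 ng/mL Noggin (which blocks BMPs). M plate cells were kept for the same time in M medium on a well plate. P plate cells were kept for the same time on a well plate in P medium, the proliferation medium, which is DMEM with 10% FBS and ABAM. Strips were native intestinal muscle, the positive control, although their labels also carry the source name and time point of the cultured cells. The labels do not say from which stretch of the intestine the strips or the cells came, nor the age of the animals, nor whether replicates pooled animals.

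Hox genes code for homeodomain transcription factors that mark position along the head to tail axis of the embryo. They lie in clusters in the order in which they are used, with low paralog numbers at the 3′ end active towards the head and high numbers at the 5′ end active towards the tail. In the gut the mesoderm of the wall keeps a regional Hox pattern into adult life, and the members with the highest numbers belong to the hindgut. Hox proteins bind DNA together with the TALE cofactors of the Pbx, Meis and Pknox families.

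Gene counts per library ranged from 21396485 to 116643512, of which 9564 to 59179 counts fell on Hox genes. Levels are CPM, the counts of a library scaled to a fixed library size with TMM factors, given per library in replicate order. A count of 0 in a library allows up to 0.0271 to 0.125 CPM. Several libraries stood apart from their groups. P plate replicate 1 had a summed macrophage marker level of 16390 CPM against 3002 and 1868 CPM in replicates 2 and 3, and 282 CPM of mesothelium markers against 2925 and 2226 CPM. M scaffold replicate 3 had 192 CPM of endothelium markers against 1387 and 918 CPM in replicates 1 and 2. Strips replicate 2 had 296 CPM of intestinal epithelium markers against 48.4 and 40.7 CPM in replicates 1 and 3. Smooth muscle markers, which define the labelled tissue, were present in every library, with sums from 2919 to 10990 CPM in the cultures and from 34060 to 35510 CPM in strips.

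Hox RNA was present in all 12 libraries, and most of it came from the middle of the clusters. Members of paralog groups 4 to 8 held 82.7% to 87.7% of the Hox CPM in M scaffold, 76.8% to 79.7% in M plate, 67.0% to 83.1% in P plate and 81.0% to 87.0% in strips. Paralog groups 10 to 13 summed to 1.45 to 5.53 CPM in M scaffold, 10.6 to 12.1 CPM in M plate, 1.40 to 8.45 CPM in P plate and 0.0834 to 0.164 CPM in strips. No strips library overlapped a cultured library in that sum, and the strips had the lowest sums. Most of the cultured sums came from Hoxd10 and Hoxc13, so they do not describe the whole class. Hoxd10 and Hoxc13 averaged 3.18 and 0.479 CPM in M scaffold and 7.27 and 3.59 CPM in M plate. In P plate Hoxc13 averaged 5.55 CPM and Hoxd10 had no counts, so not every member was lowest in strips. The sum over all 39 members was 318 to 362 CPM in M scaffold, 361 to 401 CPM in M plate, 262 to 418 CPM in P plate and 506 to 686 CPM in strips. These sums add counts of genes of unequal length and carry no test.

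**Figure D1:**
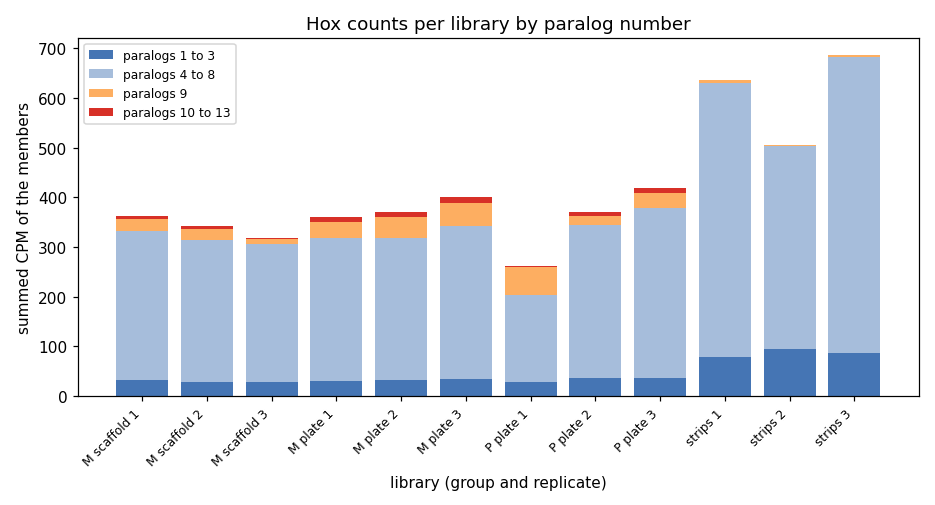
Summed CPM of the Hox members in each library (horizontal axis, group and replicate), stacked by paralog number. The 3 strips libraries reach 506 to 686 CPM and hold almost no members above number 8, while the cultures lie between 262 and 418 CPM.

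Of the 39 members, 27 passed the low-count filter and were tested, and 12 did not. The filter keeps a gene that is high in a single group, so Hoxd10 passed through M scaffold and M plate, and Hoxa9 through M plate alone. Counts over the 27 are therefore not counts over all members. The 12 that did not pass were Hoxa10, Hoxa11, Hoxa13, Hoxb1, Hoxb13, Hoxc10, Hoxc11, Hoxc12, Hoxd1, Hoxd11, Hoxd12 and Hoxd13, and 8 of them had fewer than 5 counts over all libraries together. Hoxa13 had 3 counts in all, Hoxb13 had 1, and Hoxd12 and Hoxd13 had none. These are the hindgut end of the clusters, and Hoxa13 and Hoxd13 are the members needed for the terminal hindgut in the mouse. Among the others, Hoxb1, a hindbrain gene, had 25 counts over the strips libraries and none over the P plate libraries, so it was at least 5.99-fold lower in P plate, with 3 counts over that group as the floor. Hoxc10 had 24, 11 and 21 counts over M scaffold, M plate and P plate and none over the strips. Hoxa10 had 21 counts over M scaffold, 35 over M plate, 4 over P plate and 3 over strips. With the filter dropped, Hoxb1 was called lower than strips in M scaffold, M plate and P plate (adjusted p = 0.0275, 0.029 and 0.00886), Hoxc10 higher in M scaffold and P plate (0.0282 and 0.00861) and Hoxa10 higher in M plate (0.0255).

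**Figure D2:**
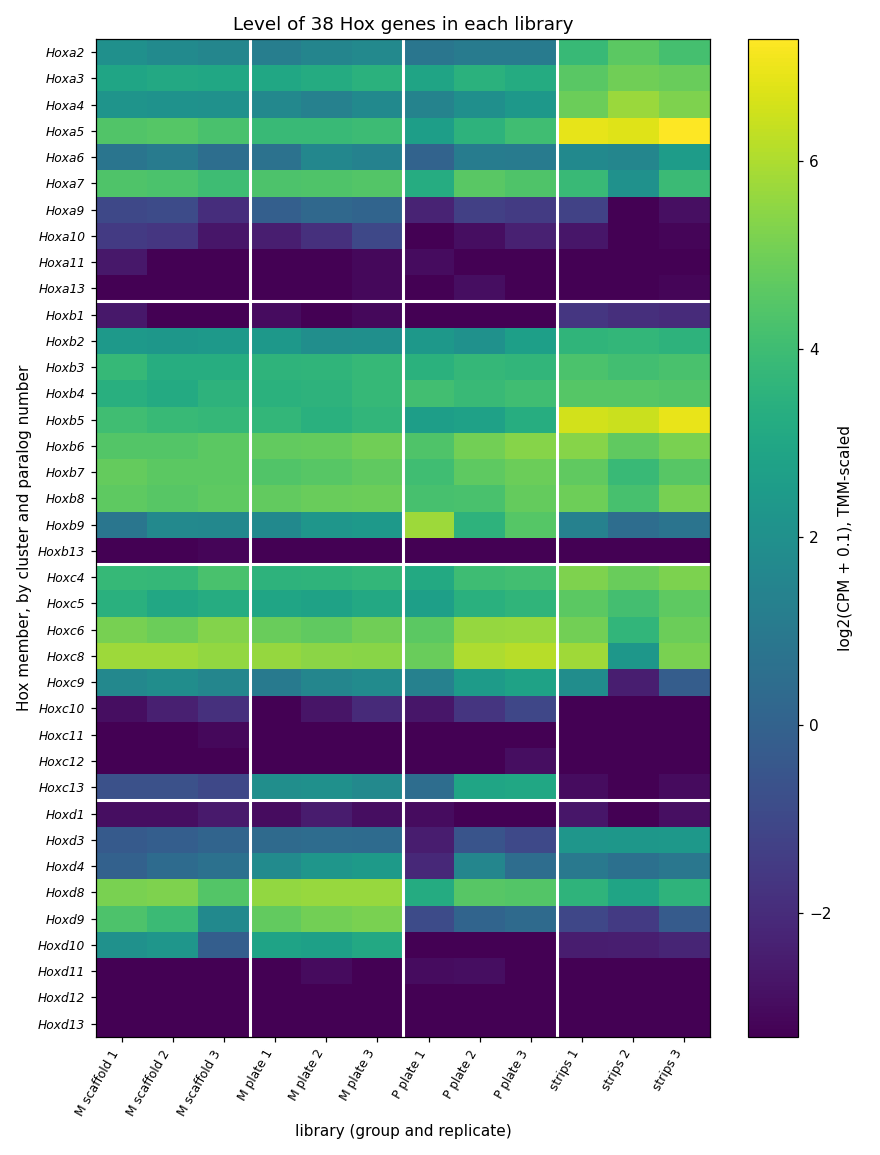
Level of 38 of the 39 Hox genes (vertical axis, by cluster and paralog number) in each library (horizontal axis, group and replicate), as log2(CPM + 0.1). Hoxa5 and Hoxb5 are brightest in strips, Hoxd8 and Hoxd9 are brighter in the M medium groups than in P plate and strips, and the members above number 10 other than Hoxc13 are dark in every library.

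In native muscle the group 5 paralogs led. Per length, as reads per kilobase of merged exons at the same library scaling (RPKM), Hoxa5 averaged 68.9 RPKM and Hoxb5 36.6 RPKM in strips, followed by Hoxa4 at 25.1, Hoxb6 at 17.6, Hoxb7 at 13.7, Hoxc4 at 13.6 and Hoxc8 at 11.4 RPKM. Hoxa5 is known in the mouse from the mesenchyme of the lung, stomach and gut, and Hoxb5 from enteric nerve precursors. The order was different in the cultures, where Hoxc8 led in M scaffold at 18.2 RPKM and in P plate at 19.4 RPKM, and Hoxd8 led in M plate at 18.1 RPKM. The 6 leading members in strips kept their places when only the exon length not shared with another gene was used.

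The strips libraries differed among themselves in several members. Hoxc8, which patterns the trunk skeleton and its nerves in the mouse, stood at 55.7, 4.79 and 36.2 CPM in strips. Hoxc9 stood at 3.59, 0.0834 and 0.765 CPM, Hoxa7 at 14.5, 4.09 and 15.2 CPM and Hoxc6 at 33.1, 12.6 and 30.5 CPM. In each of these 4 genes strips replicate 2 was the lowest. The same library was the highest of the strips in Hoxa2, at 14.3, 24.2 and 17.7 CPM, and in Hoxa4, at 29.9, 52.0 and 37.9 CPM. It also had 6.21 CPM of Gata4, a factor of the proximal small intestine, against 0.602 and 0.487 CPM in replicates 1 and 3. Its higher level of epithelium markers is given above, and its part in these values was not tested.

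The comparisons of each culture with the strips set the Hox levels of cultured cells beside those of native muscle. The labels give no stretch of intestine for either. A difference of gut position and a change in culture therefore cannot be told apart. In every culture Hoxa5 and Hoxb5 were 6.14-fold to 13.6-fold lower than in strips, and 9 more members with paralog numbers from 2 to 5 were lower too. Hoxc13 was higher in every culture, Hoxd8, Hoxd9 and Hoxd10 in both M medium groups, and Hoxb9 in both plate groups. In M scaffold 13 of 27 tested members were lower and 4 higher, against 27.6% and 24.5% of all 17700 genes tested. In M plate 11 were lower and 6 higher, against 28.4% and 26.5% of all genes. In P plate 13 were lower and 3 higher, against 32.7% and 30.5% of all genes. The members lower in M scaffold, M plate and P plate came to 48.1%, 40.7% and 48.1% of those tested, and the members higher to 14.8%, 22.2% and 11.1%. The share of falls was above that of all genes in each comparison and the share of rises below it. In either direction 63% of the tested members were called in M scaffold, 63% in M plate and 59.3% in P plate, against 52.1%, 54.9% and 63.1% of all genes. Libraries did not overlap between culture and strips for 19, 20 and 16 of the 27, and for 65.3%, 73.2% and 67.8% of all genes. The median log2 fold change of the tested members was -0.59 in M scaffold, -0.27 in M plate and -0.39 in P plate, against -0.02, -0.01 and -0.03 over all genes. The 3 comparisons share the same strips libraries.

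The same 11 members were lower in all 3 comparisons: Hoxa2, Hoxa3, Hoxa4, Hoxa5, Hoxb2, Hoxb3, Hoxb4, Hoxb5, Hoxc4, Hoxc5 and Hoxd3. They are all but Hoxd4 of the 12 members of paralog groups 2 to 5, a grouping noticed after the values were seen. In each of the 11 the cultured libraries lay below the strips without overlap. The share of all genes lower in all 3 comparisons was not counted, so the 11 have no background beside them. As the strips libraries are shared, the 3 comparisons do not repeat each other independently. In these bulk libraries fewer cells of a type and less RNA per cell cannot be told apart.

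Hoxa5 (ENSMUSG00000038253, GRCm38 chromosome 6, 52201754 to 52204587, minus strand) stood at 21.4, 22.8 and 19.0 CPM in M scaffold, 14.7, 14.6 and 15.5 CPM in M plate, 6.13, 11.7 and 16.2 CPM for P plate, and 121, 109 and 157.5 CPM in strips. The lowest strips library was far above the highest cultured one. Its log2 fold change against strips was -2.62 ± 0.29 (SE) in M scaffold, -3.11 ± 0.30 in M plate and -3.51 ± 0.30 in P plate (adjusted p = 8.26e-05, 2.68e-05 and 5.72e-06). Hoxb5 (chromosome 11, 96303336 to 96306121, plus strand) gave 16.6, 14.2 and 13.2 CPM in M scaffold, 13.2, 10.7 and 12.5 CPM in M plate, 6.02, 6.73 and 9.79 CPM for P plate, and 96.4, 87.4 and 122 CPM in strips. Its log2 fold change was -2.80 ± 0.20 in M scaffold, -3.07 ± 0.21 in M plate and -3.76 ± 0.21 in P plate, the last with an adjusted p of 6.32e-07. Neither gene overlapped between strips and any culture. Their paralog Hoxc5 fell by 1.23 ± 0.24 in M scaffold, 1.57 ± 0.25 in M plate and 1.20 ± 0.24 in P plate on the log2 scale.

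Among the group 4 paralogs Hoxa4 had the lowest fold changes. It stood at 4.39, 4.22 and 4.06 CPM in M scaffold, 3.04, 2.44 and 3.21 CPM in M plate, 2.6, 3.84 and 5.01 CPM for P plate, and 29.9, 52.0 and 37.9 CPM in strips. The log2 fold change was -3.24 ± 0.27 in M scaffold, -3.78 ± 0.28 in M plate and -3.39 ± 0.27 in P plate. Hoxb4, a factor of blood stem cells and the hindbrain, fell by 1.10 ± 0.13, 0.86 ± 0.13 and 0.47 ± 0.13 in the same order, and Hoxc4 fell by 1.18 ± 0.23, 1.51 ± 0.24 and 1.34 ± 0.24.

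Of the head-end members, Hoxa2, known for the hindbrain and the second branchial arch, stood at 3.87, 3.29 and 2.80 CPM in M scaffold, 2.21, 2.71 and 3.15 CPM in M plate, 1.72, 2.06 and 2.01 CPM for P plate, and 14.3, 24.2 and 17.7 CPM in strips. All 9 cultured libraries were below all strips. The log2 fold change was -2.50 ± 0.23 in M scaffold, -2.80 ± 0.24 in M plate and -3.28 ± 0.24 in P plate. Hoxd3 stood at 0.707, 0.808 and 0.965 CPM in M scaffold, 1.18, 1.27 and 1.20 CPM in M plate, 0.0821, 0.584 and 0.414 CPM for P plate, and 4.65, 4.79 and 5.02 CPM in strips. Only 37.2% of the exon length of Hoxd3 belongs to no other gene, so its counts are uncertain. Hoxa3, Hoxb2 and Hoxb3 fell by 0.55 to 1.85 on the log2 scale over the 3 comparisons. Of the exon length of Hoxb3, 52.9% lies opposite the antisense RNA gene Hoxb3os.

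Hoxa6 stood at 1.63, 2.02 and 1.33 CPM in M scaffold, 1.49, 2.94 and 2.53 CPM in M plate, 0.931, 2.12 and 2.04 CPM for P plate, and 3.23, 2.88 and 5.78 CPM in strips. M plate overlapped the strips, while M scaffold and P plate lay below them. Against strips it was lower in M scaffold at -1.27 ± 0.40 and in P plate at -1.23 ± 0.40. Without strips replicate 3 neither call held (adjusted p = 0.0958 and 0.0938), and the M scaffold call was also lost without M scaffold replicate 1 or 3 (0.0546 and 0.0714).

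Markers of 4 kinds of cell moved in the same direction as these members in every culture. Smooth muscle markers were lower than in strips for 6 of 8 genes in M scaffold, 8 of 8 in M plate and 6 of 8 in P plate, with sums of 3476 to 10700, 2919 to 5233 and 5266 to 10990 CPM against 34060 to 35510 CPM in strips. Enteric neuron markers were lower for 6, 8 and 8 of 8 genes in the same order, with sums of 382 to 569, 135 to 251 and 36.9 to 74.9 CPM against 1258 to 1724 CPM. Both listed markers of interstitial cells of Cajal, the gut pacemaker cells, were lower in every culture, with sums of 57.9 to 119, 40.3 to 48.2 and 16.6 to 26.1 CPM against 326 to 414 CPM. Intestinal epithelium markers were lower for 6, 6 and 5 of 6 genes, with at most 5.18 CPM in a culture against 40.7 to 296 CPM. Other markers moved the opposite way. Macrophage markers were higher than in strips for 4, 5 and 5 of 5 genes in M scaffold, M plate and P plate, with sums of 1395 to 3388, 2490 to 3394 and 1868 to 16390 CPM against 121 to 164 CPM in strips. Of 7 fibroblast markers 3 were higher in each culture and 2 were lower in P plate, with sums of 11520 to 16430, 7546 to 10200 and 6423 to 8089 CPM against 2826 to 3509 CPM in strips. The remaining lists were mixed. Enteric glia markers were lower for 5 of 5 genes in P plate and 1 in M plate, but 2 were higher in M scaffold. Of 6 endothelium markers 5 were lower in P plate, while 5 were higher and 1 lower in both M medium groups. All 4 lymphatic endothelium markers were higher in both M medium groups, with 1 higher and 1 lower in P plate. Of 4 mesothelium markers 1 was lower in M scaffold and 1 higher in P plate. The part of these cells in the Hox levels was not tested.

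**Figure D3:**
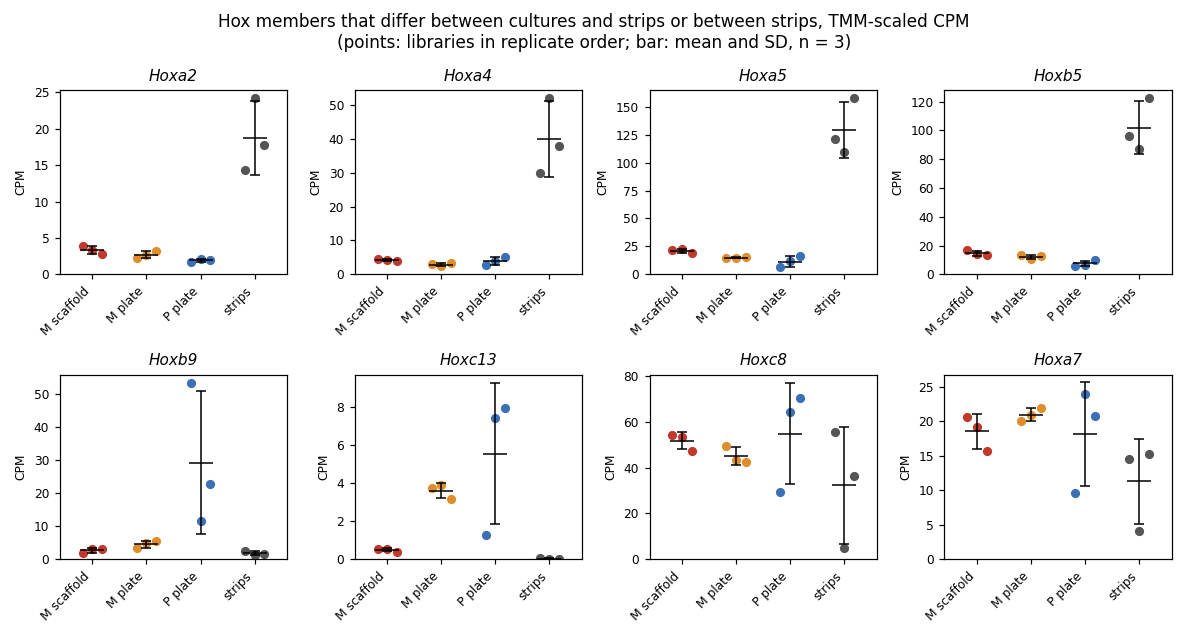
TMM-scaled CPM of 8 Hox members by group (horizontal axis), with 1 point per library in replicate order and a bar for the mean and SD of 3 libraries. Hoxa2, Hoxa4, Hoxa5 and Hoxb5 lie far lower in all cultures than in strips, Hoxb9 is highest in P plate, Hoxc13 is above the strips in every culture, and Hoxc8 and Hoxa7 show the low strips replicate 2 at 4.79 and 4.09 CPM.

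Paralog groups 6 to 8, a range taken after the values were seen, gave few calls. Their tested members numbered 8, and besides Hoxa6 and Hoxd8 none of them was called in any comparison. Against strips 1 was higher and 1 lower in M scaffold, 1 was higher in M plate and 1 lower in P plate. Of all genes 52.1%, 54.9% and 63.1% were called there. Strips replicate 2 was the lowest of the strips in each of these 8, and a missing call does not show equal levels. The 8 members that were tested and called in no comparison were Hoxa7, Hoxb6, Hoxb7, Hoxb8, Hoxc6, Hoxc8, Hoxc9 and Hoxd4, with log2 fold changes from -1.91 to 1.72. Hoxb7 stood at 27.5, 24.2 and 24.5 CPM in M scaffold, 21.5, 23.1 and 25.7 CPM in M plate, 16.4, 25.6 and 29.9 CPM for P plate, and 26.1, 14.5 and 23.0 CPM in strips. Its log2 fold change against strips was 0.26 ± 0.24 in M scaffold, 0.14 ± 0.24 in M plate and 0.17 ± 0.24 in P plate. Hoxc8 ranged from 42.6 to 54.1 CPM over the 6 libraries in M medium, and its fold changes against strips, of 0.48 to 0.76 with SE near 0.62, carry the wide spread of the strips. Some of these members were called against strips under other settings. Without strips replicate 1 Hoxc9 was called higher in M scaffold (2.69, adjusted p = 0.0132), M plate (2.47, 0.0164) and P plate (3.34, 0.00355). Without strips replicate 2 Hoxb8 was called lower in P plate (-0.64, adjusted p = 0.00975). Hoxb6 in M scaffold just missed the threshold (-0.59 ± 0.24, adjusted p = 0.0554) and was called lower without strips replicate 2 (-0.77, 0.0254) and, with all libraries kept, with other size factors (0.0458), under DESeq2 (0.0303) and with only the groups compared (0.0276). Without P plate replicate 3 Hoxb8 was also called lower in P plate (-0.62, 0.0404), and without P plate replicate 1 Hoxc6 was called higher there (0.94, 0.0232).

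M plate against P plate sets the 2 media side by side on the same surface. In cluster d, Hoxd8, Hoxd9 and Hoxd10 were higher in M plate, by 2.74-fold, 36.9-fold and at least 243-fold. Hoxd3 and Hoxb5 were also higher, and Hoxb9 was lower. In all, 7 of 27 tested members were called, or 25.9%, against 24.9% of all genes tested, a share near the background. By direction 5 were higher and 2 lower, against 14.3% and 10.6% of all genes, and the median log2 fold change was 0.04. Libraries did not overlap for 11 of the 27 and for 41.9% of all genes. Cluster d held 23.9% to 25.9% of the Hox CPM in M plate, 3.80% to 7.46% in P plate and 2.74% to 3.00% in strips.

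Hoxd8, Hoxd9 and Hoxd10 are neighbours on chromosome 2 and lie in the order Hoxd10, Hoxd9, Hoxd8 on the plus strand. In the mouse Hoxd9 and Hoxd10 pattern the limb and the lumbar spinal cord, and in human endothelial cells HOXD8 and HOXD10 have been studied as regulators of lymphatic and blood vessel growth. Their promoters, from 250 bases before to 50 after the start site in RefSeq on GRCm38.p6, are shown because the genes moved together, with that of Hoxa5, the leading member of the strips, beside them. Capitals mark CG dinucleotides.
Hoxd8, chr2:74704365-74704664, plus strand: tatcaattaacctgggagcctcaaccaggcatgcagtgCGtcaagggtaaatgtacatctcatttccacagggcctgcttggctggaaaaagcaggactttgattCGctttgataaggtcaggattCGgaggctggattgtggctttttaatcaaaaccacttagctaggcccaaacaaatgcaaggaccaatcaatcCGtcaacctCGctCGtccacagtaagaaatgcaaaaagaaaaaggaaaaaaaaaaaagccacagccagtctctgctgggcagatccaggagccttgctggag
Hoxd9, chr2:74697513-74697812, plus strand: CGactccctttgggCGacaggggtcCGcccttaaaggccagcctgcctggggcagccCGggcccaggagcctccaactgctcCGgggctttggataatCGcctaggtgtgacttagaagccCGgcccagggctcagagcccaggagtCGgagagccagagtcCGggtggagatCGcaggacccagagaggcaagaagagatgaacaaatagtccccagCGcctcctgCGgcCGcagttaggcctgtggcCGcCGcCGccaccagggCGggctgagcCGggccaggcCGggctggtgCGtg
Hoxd10, chr2:74691641-74691940, plus strand: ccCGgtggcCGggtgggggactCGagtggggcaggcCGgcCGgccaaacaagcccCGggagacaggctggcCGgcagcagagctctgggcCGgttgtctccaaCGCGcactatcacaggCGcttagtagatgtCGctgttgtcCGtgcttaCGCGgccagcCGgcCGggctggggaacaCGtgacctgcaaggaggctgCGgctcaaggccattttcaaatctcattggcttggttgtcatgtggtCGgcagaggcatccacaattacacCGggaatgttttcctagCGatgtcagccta
Hoxa5, chr6:52204538-52204837, minus strand: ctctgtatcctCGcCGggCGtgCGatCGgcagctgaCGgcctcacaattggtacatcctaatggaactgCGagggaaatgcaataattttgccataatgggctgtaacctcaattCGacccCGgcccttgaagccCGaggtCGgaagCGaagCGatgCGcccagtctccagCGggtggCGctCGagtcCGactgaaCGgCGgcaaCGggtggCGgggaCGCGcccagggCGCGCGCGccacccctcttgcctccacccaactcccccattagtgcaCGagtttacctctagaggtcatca
The windows hold 6, 20, 22 and 29 CG dinucleotides, against a median of 7 over 32851 promoters of the same length, of which 26.5% hold at least 20. The letters TTTATG (a Cdx half-site), TGATTNAT (a joint Pbx and Hox site) and TATAAA, searched on both strands, are in none of the 4 windows and in 11.9%, 3.22% and 13.6% of all promoters. RefSeq promoters were found for 22 of the 39 members, and of their 24 entries 5, 2 and 4 hold these letters.

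Hoxd9 (chromosome 2, 74697727 to 74700208) stood at 20.03, 15.0 and 3.24 CPM in M scaffold, 26.5, 33.1 and 36.1 CPM in M plate, 0.438, 0.984 and 1.18 CPM for P plate, and 0.383, 0.2502 and 0.731 CPM in strips. The M medium libraries were all above the P plate and strips libraries. Its log2 fold change in M plate was 5.21 ± 0.68 against P plate (adjusted p = 0.000442) and 6.01 ± 0.71 against strips (adjusted p = 8.39e-05), and in M scaffold 4.68 ± 0.68 against strips. In P plate it was not called against strips, at 0.80 ± 0.67.

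Hoxd10 (chromosome 2, 74691924 to 74695105) had no counts in any P plate library. It stood at 4.05, 4.69 and 0.803 CPM in M scaffold, 6.99, 6.42 and 8.40 CPM in M plate, and 0.0821, 0.0834 and 0.116 CPM in strips. Against strips its log2 fold change was 4.96 ± 0.70 in M scaffold and 6.17 ± 0.72 in M plate. M plate was at least 243-fold higher than P plate with 3 counts over P plate as the floor (adjusted p = 0.000257). Strips, with 15 counts over the group, also exceeded P plate, which was at least 3.14-fold lower (adjusted p = 0.0267). That last call was lost without P plate replicate 1, 2 or 3 (adjusted p = 0.0723, 0.0558 and 0.0541) and without strips replicate 3 (0.0685).

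Hoxd8 (chromosome 2, 74704615 to 74707933) was present in every group. It stood at 35.3, 37.5 and 22.03 CPM in M scaffold, 48.3, 50.4 and 49.95 CPM in M plate, 9.22, 23.2 and 21.8 CPM for P plate, and 12.1, 7.30 and 11.9 CPM in strips. M plate libraries were all above the others. The log2 fold change in M plate was 1.46 ± 0.34 against P plate (adjusted p = 0.0108) and 2.24 ± 0.35 against strips (0.00038), and in M scaffold 1.59 ± 0.34 against strips (0.00296). P plate was not called against strips (0.79 ± 0.33, adjusted p = 0.0602), but was called without P plate replicate 1 (1.06, adjusted p = 0.00374) and under DESeq2 with all libraries (0.76, adjusted p = 0.0436).

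Most endothelial markers were higher where Hoxd9 and Hoxd10 were higher in M medium, with Vwf as an exception. In M plate against P plate 5 of 6 endothelium markers and 3 of 4 lymphatic endothelium markers were higher and none lower. Markers of other cells rose there too, so the parallel was not particular to endothelium. Higher calls were made for 5 of 5 enteric glia, 6 of 8 enteric neuron and 3 of 7 fibroblast markers. Both markers of interstitial cells of Cajal and 2 of 6 intestinal epithelium markers were also higher. No macrophage or mesothelium marker was called, and 3 of 8 smooth muscle markers were lower. The endothelium list summed to 192 to 1387 CPM in M scaffold, 1427 to 1804 CPM in M plate, 20.3 to 28.0 CPM in P plate and 104 to 211 CPM in strips. The lymphatic list summed to 236 to 1681, 2671 to 3586, 67.5 to 93.9 and 38.1 to 47.4 CPM in the same order. In P plate the endothelium markers were uneven, with 5 counts each of the junction gene Cldn5 and the receptor gene Tie1 over the 3 libraries, 38 counts of Cdh5 and 44 of Pecam1, but 400 counts of Vwf and 1861 of the VEGF receptor gene Kdr. Vwf, the clotting factor of blood vessel endothelium, averaged 3.47 CPM in M scaffold, 1.78 CPM in M plate, 3.83 CPM in P plate and 16.8 CPM in strips, and was lower than strips in every culture. Pecam1 averaged 0.416 CPM in P plate against 31.4 CPM in strips, while Hoxd9 overlapped between these groups. Prox1, the factor that specifies lymphatic endothelium, stood at 155, 77.4 and 15.1 CPM in M scaffold, 205 to 247 CPM in M plate, 0.707 to 0.893 CPM in P plate, and 3.07, 4.09 and 7.20 CPM in strips.

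Ratios to Pecam1 and Prox1, out of all the listed endothelial markers, were chosen after the values were seen. Hoxd9 had 8.53% to 8.75% of the CPM of Pecam1, an adhesion gene of endothelial junctions, in M scaffold, 8.59% to 11.5% in M plate, 51.6% to 3700% in P plate and 0.984% to 1.64% in strips. The P plate values rest on 44 counts of Pecam1. M scaffold replicate 3, with few endothelial counts, stood at 8.75% for Hoxd9. For Hoxd8 it stood at 59.6%, against 15.0% and 21.4% in replicates 1 and 2. Hoxd10 had 1.73% to 2.68% of the Pecam1 CPM in M scaffold, 1.83% to 2.67% in M plate and 0.255% to 0.352% in strips. Set against Prox1, Hoxd9 had 12.9% to 21.5% in M scaffold, 10.7% to 17.6% in M plate, 51.6% to 139% in P plate and 6.12% to 12.5% in strips, so the strips overlapped M plate and P plate lay above. Hoxd10 had 2.62% to 6.06% of the Prox1 CPM in M scaffold, 2.84% to 4.09% in M plate and 1.61% to 2.68% in strips. Hoxd8 had 15.0% to 59.6% of the Pecam1 CPM in M scaffold, 14.4% to 15.9% in M plate and 26.3% to 51.8% in strips, and in P plate, with Pecam1 at 0.0319 to 0.849 CPM, it exceeded the marker in every library. Of the Prox1 CPM Hoxd8 had 22.8% to 146% in M scaffold, 19.6% to 24.3% in M plate and 166% to 394% in strips. In P plate it had 1090% to 3280%. The part of endothelial or other cells in the HoxD levels was not tested.

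**Figure D4:**
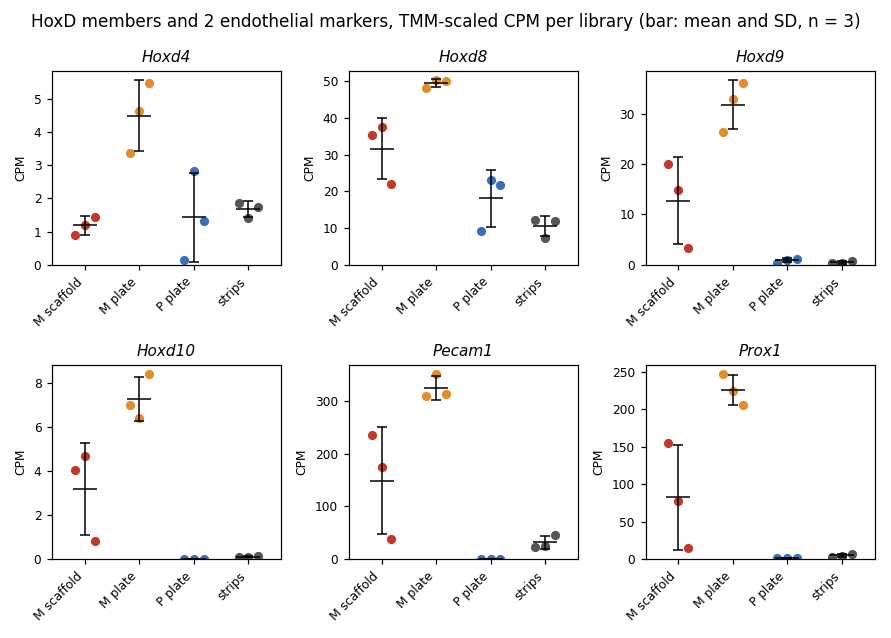
TMM-scaled CPM of 4 HoxD members and of the endothelial genes Pecam1 and Prox1 by group (horizontal axis), with 1 point per library in replicate order and a bar for the mean and SD of 3 libraries. Hoxd9, Hoxd10, Pecam1 and Prox1 are high in M plate, lowest of the M scaffold libraries in replicate 3, and near 0 in P plate.

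The other HoxD members and Hoxa9 were less certain. Hoxd3 was higher in M plate than in P plate by 1.76 ± 0.46 (adjusted p = 0.0193), a call lost without M plate replicate 1 or 2 (0.0515 and 0.0567) and, with all their libraries, when only these groups were fitted (0.0944). Hoxd4, which shares 52.3% of its exon length with genes on the same strand, was not called (1.66 ± 0.68, adjusted p = 0.102), though its libraries did not overlap between M plate and P plate. It was called higher without P plate replicate 1 (1.12, adjusted p = 0.0443) or 2 (2.65, 0.0208) and under DESeq2 with all libraries (0.0448). Hoxa9, on another chromosome, stood at 0.831, 1.12 and 0.959 CPM in M plate, 0.110, 0.307 and 0.255 CPM for P plate, and 0.329, 0 and 0.0348 CPM in strips. It was called in M plate against strips (3.03 ± 0.82, adjusted p = 0.00945) and not against P plate (2.11 ± 0.77, adjusted p = 0.0682), though it was called there under DESeq2 (0.0303) and with only these groups fitted (0.0189). The fold change against strips was 5.08 without strips replicate 1 and 2.37 without strips replicate 3, and without strips replicate 1 Hoxa9 was also called higher in M scaffold (3.48, adjusted p = 0.00744) and P plate (2.97, 0.0121).

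Hoxb9 and Hoxc13 were the members above number 8 with their highest means in P plate that were called there against strips. Hoxb9 (chromosome 11, 96271457 to 96276595) patterns the thorax in the mouse. It stood at 1.69, 3.08 and 3.04 CPM in M scaffold, 3.18, 4.72 and 5.33 CPM in M plate, 53.2, 11.4 and 22.5 CPM for P plate, and 2.46, 1.29 and 1.58 CPM in strips. All P plate libraries were above all others, with replicate 1 the highest. Hoxb9 was lower in M plate than in P plate by a log2 fold change of -2.72 ± 0.52 (adjusted p = 0.00389), or -1.94 without P plate replicate 1. P plate was higher than strips by 4.03 ± 0.55 (adjusted p = 0.000123), or 3.21 without that replicate. M plate was also called higher than strips (1.31 ± 0.51, adjusted p = 0.0495), but this call was lost without M plate replicate 1, 2 or 3 (0.0522, 0.106 and 0.127) and without strips replicate 1, 2 or 3 (0.0535, 0.143 and 0.138).

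Hoxc13 (chromosome 15, 102921103 to 102928814), a gene of hair and nail in the mouse, is the last member of cluster c at its 5′ end. It stood at 0.522, 0.528 and 0.388 CPM in M scaffold, 3.73, 3.91 and 3.15 CPM in M plate, 1.29, 7.41 and 7.94 CPM for P plate, and 0.0274, 0 and 0.0232 CPM in strips. Its neighbours Hoxc11 and Hoxc12 had 2 and 1 counts over all 12 libraries. All cultured libraries were above the strips, which held 3 counts in all. The ratio of summed counts to strips was 21.5 in M scaffold (exact 95% counting interval 7.07 to 106), 172 in M plate (58.4 to 835) and 262 in P plate (89.0 to 1272), and each was called (adjusted p = 0.00193, 6.36e-05 and 2.01e-05). It was the only member called higher than strips in all 3 comparisons. M plate and P plate overlapped, and their difference was not called (-0.63 ± 0.52, adjusted p = 0.411), but with P plate replicate 1 left out Hoxc13 was called lower in M plate (-1.09, adjusted p = 0.00893).

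Hoxb5 was higher in M plate than in P plate by 0.69 ± 0.20 on the log2 scale (adjusted p = 0.0264), with all M plate libraries above all P plate libraries, but it was not called without M plate replicate 1 or 3 (adjusted p = 0.0921 and 0.0703) or without P plate replicate 1 or 2 (0.0583 and 0.0727), nor when only these groups were fitted (0.0855). Other calls appeared under other settings. Hoxc5 was lower without P plate replicate 1 (-0.60, adjusted p = 0.0377), and Hoxb4 was lower when P plate replicate 2 (-0.45, 0.048) or M plate replicate 3 (-0.49, 0.0386) was left out and under DESeq2 with all libraries (-0.39, 0.0192).

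M scaffold against M plate sets the 2 surfaces side by side in 1 medium. Of the tested members 1 was called, Hoxc13, which was lower on the scaffold by a log2 fold change of -2.92 ± 0.58 (adjusted p = 0.0311), with no overlap between the libraries given above. This is 3.7% of the 27 tested members, against 3.18% of all genes called in either direction and 1.64% called lower, a share near the background. None was called higher, against 1.53% of all genes, and the median log2 fold change was -0.20, against 0.01 over all genes. The call did not hold without any single one of the 6 libraries: the adjusted p was 0.067, 0.0676 and 0.0923 without M scaffold replicate 1, 2 or 3, and 0.077, 0.13 and 0.086 without M plate replicate 1, 2 or 3, while the fold change stayed between -2.76 and -3.01. Same-numbered libraries of these groups deviated together, and with the replicate as a block within the 6 libraries Hoxc13 was again lower (-2.9 ± 0.22, adjusted p = 0.0166) and Hoxd4 was called as well (-1.91 ± 0.19, adjusted p = 0.02, against 0.145 without the block). That made 2 members lower in place of 1, beside 931 in place of 291 among all genes.

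Hoxd4 stood at 0.891, 1.21 and 1.45 CPM in M scaffold and 3.35, 4.64 and 5.49 CPM in M plate. The other HoxD members were lower on the scaffold without a call: Hoxd8 at -0.65 ± 0.33, Hoxd9 at -1.33 ± 0.56 and Hoxd10 at -1.21 ± 0.54 (adjusted p = 0.287, 0.208 and 0.241). In these 4 genes all M scaffold libraries were below all M plate libraries, and in Hoxd8, Hoxd9 and Hoxd10 M scaffold replicate 3 was lowest. Libraries of these groups did not overlap for 15 of 27 tested members and for 33.3% of all genes. Of the 6 endothelium and 4 lymphatic endothelium markers none was called in either direction, while their sums, given above, did not overlap between M scaffold and M plate, and their part in the HoxD values was not tested.

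**Figure D5:**
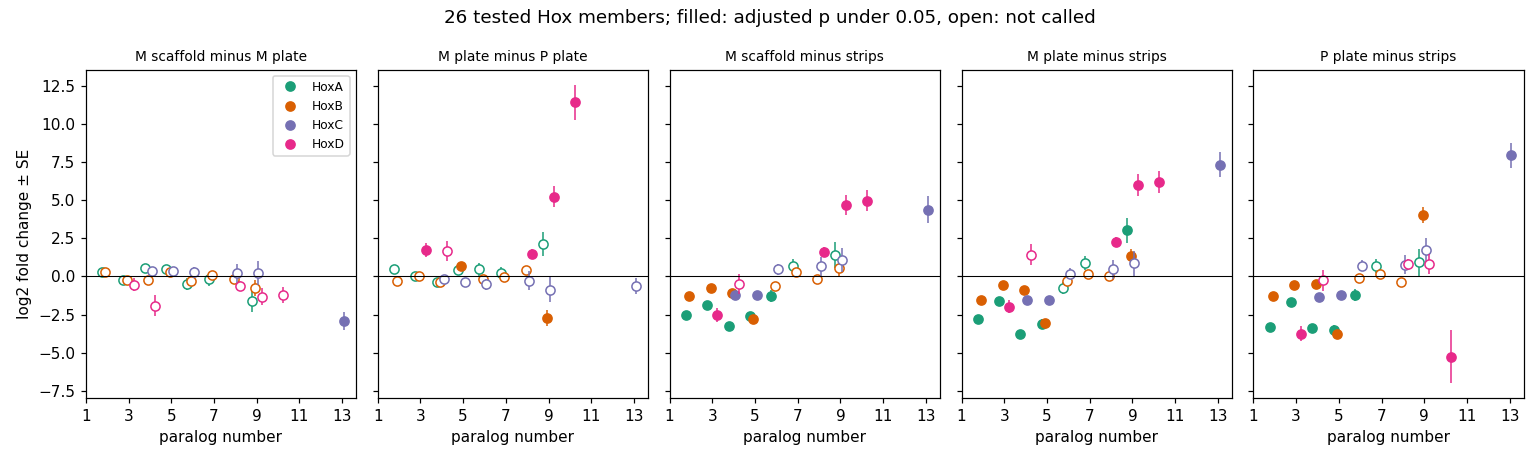
Log2 fold change with SE (vertical axis) of 26 of the 27 tested Hox members against paralog number (horizontal axis), coloured by cluster, in 5 comparisons. Filled points have an adjusted p under 0.05, and the fitted values of Hoxd10 against P plate and of Hoxc13 against strips rest on 0 and 3 counts. Members with numbers 2 to 5 lie below 0 against strips, apart from Hoxd4 in M plate, and the HoxD members with numbers 8 to 10 rise in M plate against P plate.

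The cofactors of Hox proteins fell in part against strips. Of 9 cofactor genes, all tested, 1 was higher and 4 lower in M scaffold, 5 were lower in M plate, and 1 was higher and 4 lower in P plate, with medians of -0.15, -0.71 and -0.23. Meis1, a TALE factor that joins Hox and Pbx proteins on DNA, fell by 0.72 ± 0.12 in M scaffold, 1.11 ± 0.13 in M plate and 1.14 ± 0.13 in P plate. Pbx3 fell by 0.80 ± 0.31, 1.65 ± 0.31 and 1.89 ± 0.32 in the same order, and Meis2 and Pbx4 were also lower in all 3. Pknox2 was higher in M scaffold by 1.10 ± 0.25 and in P plate by 0.67 ± 0.25. Between M plate and P plate 1 cofactor was called, Meis3, lower in M plate by -0.67 ± 0.15, and none was called on the scaffold.

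Of 15 listed RNAs of the Hox clusters 6 were tested, and 5 of them were lower than strips in each culture, with medians of -2.21 in M scaffold, -2.17 in M plate and -1.998 in P plate. Hoxaas2 and Hoxaas3, antisense RNAs that overlap Hoxa3, fell by 2.89 ± 0.24 and 3.09 ± 0.34 in M scaffold, 2.7 ± 0.24 and 2.77 ± 0.33 in M plate, and 3.15 ± 0.25 and 3.33 ± 0.34 in P plate. Hoxd3os1 was higher in M plate than in strips (1.40 ± 0.53, adjusted p = 0.0453). Hotair and Hottip, at the 5′ ends of clusters c and a, had no counts in any library. The strand setting of the counting was not given, so the counts of an antisense RNA and of its partner cannot be told apart where their exons overlap.

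Other factors with a known place along the gut gave mixed calls. Of 25 listed factors 17 were tested, and against strips 5 were higher and 7 lower in M scaffold, 4 higher and 6 lower in M plate, and 2 higher and 8 lower in P plate. Cdx2, the main intestinal factor upstream of Hox genes, had no counts in any culture and 1.75, 5.30 and 1.14 CPM in strips, which followed the order of the epithelium markers. The gut muscle factors Foxf1 and Foxf2 fell in all cultures, with Foxf1 at means of 79.1, 47.4 and 47.4 CPM in M scaffold, M plate and P plate, against 214 CPM in strips. Gata6 rose in all 3, by 2.07 ± 0.50, 2.33 ± 0.50 and 2.09 ± 0.50. Between M plate and P plate 6 were higher and 1 lower, among them Nr2f2, a factor of veins and lymphatics, higher by 1.31 ± 0.26, and Osr1, higher by 3.70 ± 0.47. Barx1, the stomach mesenchyme factor, stayed under 1 CPM in every library. Its 24 counts over the strips were uneven, at 0 to 0.917 CPM with the highest value in replicate 2.

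Genes of the Polycomb and Trithorax complexes, which keep Hox genes silent or active, moved in both directions. All 36 were tested, and against strips 8 were higher and 5 lower in M scaffold, 11 higher and 6 lower in M plate, and 7 higher and 6 lower in P plate, with medians of 0.01, -0.01 and 0.01. Ezh2, the methyltransferase of the Polycomb repressive complex, fell by 1.35 ± 0.20 in M scaffold, 1.39 ± 0.20 in M plate and 1.41 ± 0.20 in P plate, and its partner Phf19 by 2.19 ± 0.29, 1.79 ± 0.29 and 2.25 ± 0.30. Kdm6b, a demethylase that removes the Polycomb mark, was lower in M plate than in P plate by -0.51 ± 0.13 and higher in M scaffold than in M plate by 0.62 ± 0.13 (adjusted p = 0.0193 and 0.0409).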

How the data were processed

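The deposited values are counts, whole numbers per Ensembl gene with 1 column per sample, per the file headers. The submitters' processing notes name STAR 2.6.0 and the builds GRCm38 and mm10. The counting program, its annotation and strand setting, and how the technical replicates of each sample were joined, were not given in the sources used. Libraries were made with TruSeq RNA Library Prep Kit v2, per the labels' protocols. Of 52550 genes, 52403 were matched to a symbol, GRCm38 position and exon length in GENCODE M21. Library sizes and tests rest on genes alone, without the 5 summary entries, which held 4.20% to 7.87% of reads outside features and 3.12% to 3.87% ambiguous between features, as shares of these and the gene counts. Exons of 16 Hox genes overlap another gene, which can turn reads ambiguous.

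Counts of 12 libraries were filtered with filterByExpr (17700 genes left), scaled by TMM (factors 0.893 to 1.15) and tested with edgeR 4.0.16 in R 4.3.3 by the quasi-likelihood F test with group as the only term and 8 residual degrees of freedom. Adjusted p values are Benjamini-Hochberg over all 17700 genes of a comparison, two-sided, called under 0.05. The standard error comes from the F statistic. The fit was run on simulated counts in which a small set of genes differed in M plate alone. That setting does not cover the comparisons with strips, where most genes were called. Counting intervals and floors of 3 counts cover counting error only, since reads are not independent molecules. Alternatives were other size factors, DESeq2 1.42.0, no low-count filter, only the groups compared, a replicate block and each library left out. The labels call replicates biologically independent without naming animals. Same-numbered libraries of M scaffold and M plate deviated together (correlations over genes of 0.29, 0.196 and 0.304), and their block was added after this was seen.

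The members and gene lists were chosen with earlier results of these data known. Library values are given for members called in a comparison that average 1 CPM or more in some group, and for others chosen after their values were seen (Hoxa9, Hoxc8, Hoxc9, Hoxa7, Hoxc6, Hoxd4 and the marker ratios). Up to 4 called genes of each list are named. Values of 1 tested member are not reported here, though it is in all counts and sums.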

Additional observations from a re-analysis of the deposited data

How the results depend on the processing

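Of 135 pairs of a tested member and a comparison, 58 were called, 75 were called there or under an alternative, and 60 under none. No pair of those 75 turned its direction. In M scaffold against M plate, 1 member was called higher with only the groups compared (Hoxa5), and 2 were called lower under that fit, under DESeq2 and with the replicate block within the 6 libraries. With 1 library left out there the number lower was 0 to 0 in place of 1. In M plate against P plate, leaving out 1 library gave 3 to 5 members higher and 2 to 4 lower, with 4 lower without P plate replicate 1. In P plate against strips it gave 2 to 5 higher, with 5 without P plate replicate 1 or strips replicate 1. Among all genes, M scaffold against M plate gave 271 higher and 291 lower, against 1146 and 873 under DESeq2, 455 and 613 with only the groups compared, 787 and 931 with the block within the 6 libraries, and 7 and 11 without M plate replicate 2. M plate against P plate gave 1868 lower, against 1187 without a filter and 1116 with only the groups compared. A replicate block over all 12 libraries ended 1 call of a member, Hoxb9 in M plate against strips (adjusted p = 0.0566), as did other size factors (0.0563). It changed no other call of a member. DESeq2 called Hoxd4 lower in M scaffold than in M plate (adjusted p = 0.0463), Hoxd4 and Hoxa9 higher and Hoxb4 lower in M plate than in P plate (0.0448, 0.0303 and 0.0192), Hoxd8 higher in P plate than in strips (0.0436) and Hoxb6 lower in M scaffold than in strips (0.0303). With only the groups compared, the calls of Hoxd3 and Hoxb5 in M plate against P plate were lost (0.0944 and 0.0855), and Hoxd4 was called higher in M plate than in strips (0.00107). With 3 libraries a group, the SE of the log2 fold change against strips was 0.62 for Hoxc8 and 0.81 to 0.82 for Hoxc9, so differences of that size were not detectable for them.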
